A study of Mus musculus with 9 samples.

Results

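*Araf*, *Braf*, *Map2k1*, *Map2k2*, *Mapk3*, *Mapk14*, *Map2k4* and *Map2k7*, 8 protein kinase genes of the MAP kinase cascades, were followed by name through the expression tables of mouse 8-cell embryos. They are 8 of the 55335 entries listed in each table, each symbol occurred in every library, and all 8 passed the filter on low values. The RNA came from 3 groups of embryos, each with 3 libraries. Zygotes of the ICR strain were injected with nontargeting siRNA (control), with siRNA against *Mfn1*, a mitochondrial fusion gene (MFN1-KD), or with siRNA against *H3f3a* and *H3f3b*, the genes of histone variant H3.3 (H3.3-KD), and were cultured to the 8-cell stage. Each library is a pool that the labels give as 5 to 10 embryos, amplified by Smart-Seq2, which copies polyadenylated RNA from an oligo-dT primer. The siRNAs lower their targets only in part and act in every blastomere, and the labels do not say whether the pools of a group came from separate injections, so p-values measure the spread between these pools, which may be technical. The values are FPKM, fragments per kilobase of transcript scaled to the size of the library, and can therefore be compared between genes of different length.

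In these cascades a signal passes down a chain of kinases, each switching on the next by phosphorylation. RAF kinases, among them ARAF and BRAF, phosphorylate MEK1 and MEK2, which are encoded by *Map2k1* and *Map2k2*, and these activate ERK kinases such as ERK1 (*Mapk3*). MKK4 (*Map2k4*) and MKK7 (*Map2k7*) activate the JNK kinases in response to stress, and p38α (*Mapk14*) is the end kinase of a parallel branch. FGF signalling through ERK is known for separating epiblast from primitive endoderm in the blastocyst, and p38 is known to act in cleavage-stage embryos as they approach compaction. All of these steps are set by phosphorylation, so a transcript level is not a measure of kinase activity.

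The check of the labels went as follows. *Mfn1* had a mean of 32.6 ± 16.4 FPKM (SD, n = 3) in control and 5.03 ± 4.23 in MFN1-KD, and it fell by 2.66 on the log2 scale (limma, Benjamini-Hochberg adjusted p = 0.0431), a call lost in 7 of the 9 fits that left out 1 library, where the log2 fold change was -3.20 to -2.05. *H3f3a* fell by 3.69 (adjusted p = 7.2e-06) and *H3f3b* by 3.64 (adjusted p = 9.0e-06) in H3.3-KD. Between 21643 and 22507 entries were above 0 in the control libraries, 23655 to 24820 for H3.3-KD, and 15577 to 20842 for MFN1-KD, with the lowest count in replicate 3. Of 14 genes listed for the 8-cell and morula embryo, 10 were above 1 FPKM in every library. The list summed to 21303 to 28257 FPKM in control, 10780 to 14478 for H3.3-KD and 29048 to 35243 for MFN1-KD, with no overlap. Nearly all of this sum was *Dppa3* and *Dppa5a*. In H3.3-KD these 2 and *Sall4* lay below all control libraries. *Pou5f1*, *Cdx2*, *Tead4*, *Klf5*, *Utf1*, *Tfap2c* and *Zp3* lay above them, and the rest of the list overlapped control. In MFN1-KD *Dppa3*, *Klf5* and *Tfap2c* lay above all control libraries, and *Pou5f1* and *Padi6* lay below them. The rest of the list overlapped or touched control there. *Pou5f1*, the pluripotency factor, lay at 5.10 to 8.90 FPKM in control, 63.1 to 392.2 for H3.3-KD and 0.30 to 3.68 for MFN1-KD. *Cdx2*, the trophectoderm factor, lay at 0.06 to 0.09 FPKM in control, 0.57 to 6.24 for H3.3-KD and 0.00 to 0.06 for MFN1-KD. Of 12 cumulus or granulosa cell genes, *Inhba*, *Lhcgr* and *Fshr* were listed at 0 in all libraries. The summed level of that list was 16.2 to 30.1 FPKM in control, 38.7 to 67.4 for H3.3-KD and 10.6 to 19.4 for MFN1-KD, nearly all of it *Amhr2*. The 4 blood genes summed to 77.8 to 101 FPKM in control, 9.07 to 14.6 for H3.3-KD and 18.3 to 77.9 for MFN1-KD. The 6 sperm genes never exceeded a sum of 2.93 FPKM. The part of these levels in the results was not tested, and in pooled embryos fewer cells of a type and less RNA per cell cannot be told apart.

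The upstream sequences of 4 members are shown because *Map2k2*, *Mapk14* and *Map2k7* are those that rose in H3.3-KD, while *Map2k1* encodes the sister kinase of *Map2k2*. RefSeq promoter entries (build GRCm38.p6) were matched by symbol for 7 of the 8 members. Each sequence is the 250 bases before the annotated transcript start, read 5′ to 3′ on the gene's own strand, and capitals mark every match on either strand to the GC box (GGGCGG), the ETS core (CCGGAA), the CCAAT box (CCAAT) or the TATA box (TATAAA). The *Map2k1* window is chr9:64253606-64253855 on the minus strand. The other 3 windows are on the plus strand, at chr10:81105665-81105914 for *Map2k2*, at chr17:28691092-28691341 for the first of 2 *Mapk14* entries and at chr8:4238490-4238739 for the first of 2 *Map2k7* entries. The last bases of the *Map2k1* and *Mapk14* windows lie inside the annotated genes.
Map2k1: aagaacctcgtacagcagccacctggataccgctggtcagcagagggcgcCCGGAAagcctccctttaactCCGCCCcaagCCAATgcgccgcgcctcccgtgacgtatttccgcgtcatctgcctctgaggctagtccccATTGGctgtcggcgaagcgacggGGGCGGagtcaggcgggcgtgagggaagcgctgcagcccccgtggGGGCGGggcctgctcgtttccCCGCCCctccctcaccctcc
Map2k2: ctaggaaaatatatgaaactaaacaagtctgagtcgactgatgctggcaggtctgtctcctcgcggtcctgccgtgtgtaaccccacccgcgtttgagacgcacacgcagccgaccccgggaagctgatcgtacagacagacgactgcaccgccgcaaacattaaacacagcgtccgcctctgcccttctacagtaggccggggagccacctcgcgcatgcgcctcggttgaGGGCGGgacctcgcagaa
Mapk14: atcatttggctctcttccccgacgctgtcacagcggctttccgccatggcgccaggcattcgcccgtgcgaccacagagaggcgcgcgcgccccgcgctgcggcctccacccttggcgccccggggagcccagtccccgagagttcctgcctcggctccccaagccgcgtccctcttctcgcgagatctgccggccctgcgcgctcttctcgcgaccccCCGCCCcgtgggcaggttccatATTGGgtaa
Map2k7: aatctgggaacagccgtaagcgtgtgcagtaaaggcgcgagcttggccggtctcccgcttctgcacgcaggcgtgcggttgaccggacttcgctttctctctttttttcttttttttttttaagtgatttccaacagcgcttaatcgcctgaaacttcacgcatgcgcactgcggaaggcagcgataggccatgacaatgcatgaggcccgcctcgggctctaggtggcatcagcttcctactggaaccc

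The *Map2k1* window held 4 GC boxes, 1 ETS core and 2 CCAAT boxes, the *Map2k2* window held 1 GC box, and the *Mapk14* window held 1 GC box and 1 CCAAT box. No match to the 4 motifs was found in the *Map2k7* window shown. Among 32851 mouse promoter windows of the same length, 32.7% held a GC box, 12% an ETS core, 33.8% a CCAAT box and 12.4% a TATA box, so these matches are common. The windows of *Map2k1*, *Map2k2*, *Mapk14* and *Map2k7* had 24, 23, 30 and 19 CpG dinucleotides, against a median of 6 over all windows. Of the other matched members, *Braf* had 24 CpG and 1 GC box, *Araf* had 12 CpG with 1 ETS core and 3 CCAAT boxes, and the first *Map2k4* entry had 6 CpG and none of the motifs. Of the second entries, that of *Map2k7* had 0 CpG and 1 TATA box, that of *Mapk14* 14 CpG and 1 ETS core, and that of *Map2k4* 3 CpG, 2 ETS cores and 1 CCAAT box. Unlike the other entries, neither *Map2k4* entry matched a transcript start in GENCODE, and the second lies inside the gene. Windows above the median CpG count thus belonged both to members that rose in H3.3-KD and to *Map2k1*, *Braf* and *Araf*, which did not pass the test, while the 2 entries of *Map2k7* lay on either side of it.

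In control embryos the members fell into tiers. Mean levels were 35.7 FPKM for *Map2k2*, 30.4 for *Map2k1* and 26.8 for *Araf*, and the ranges of neighbours in this order overlapped. *Mapk14* (8.91 FPKM) and *Map2k4* (8.79) came next and overlapped each other, followed by *Map2k7* (4.29) and *Braf* (4.24), which also overlapped, while no range of one tier reached the next. *Mapk3* was lowest at 0.653 FPKM, above only 6.29% of the 13011 genes tested. In H3.3-KD *Map2k2* stood alone at the top at 142 FPKM, a level above 91.5% of the genes. In MFN1-KD *Map2k2* (27.6), *Mapk14* (19.7), *Map2k1* (16.4) and *Araf* (16.0) overlapped from neighbour to neighbour.

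**Figure D1:**
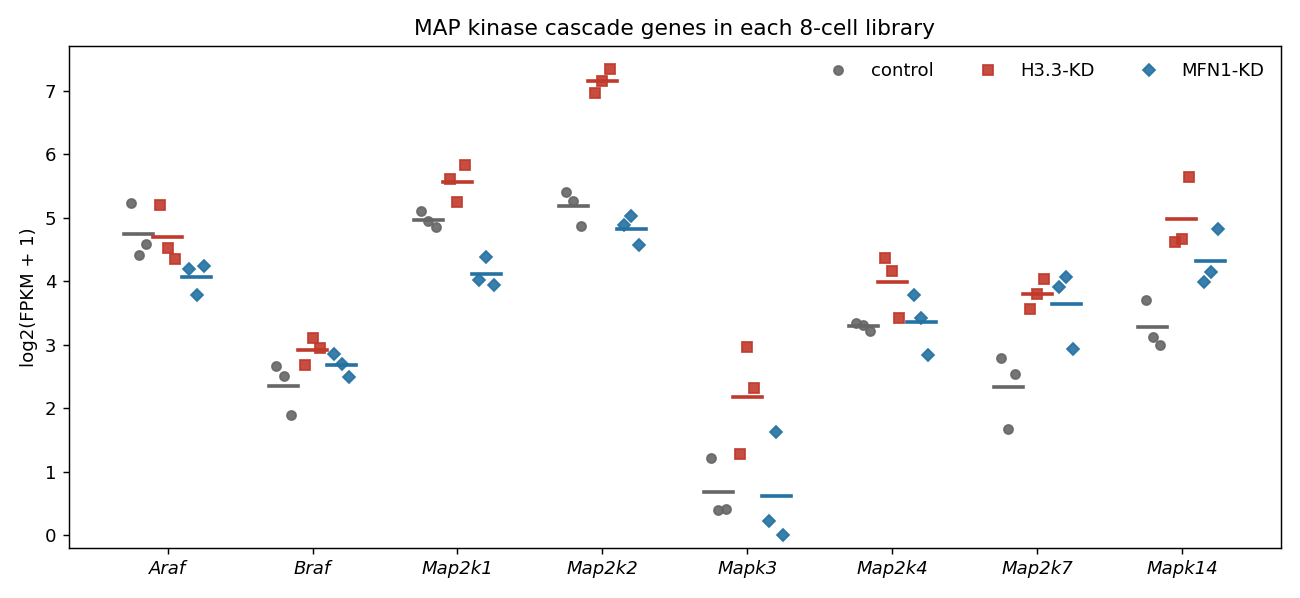
Expression of the 8 members in each library, as log2(FPKM + 1) on the vertical axis, with 1 point per library (grey circles control, red squares H3.3-KD, blue diamonds MFN1-KD) and a bar at each group's mean. The 3 H3.3-KD libraries lie above all control libraries for every member except *Araf*, with the widest gap at *Map2k2*.

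The RAF kinases open the ERK branch. *Araf* (X:20797814-20860519, plus strand, GRCm38) was measured at 36.8, 20.4 and 23.1 FPKM in control, at 35.9, 22.0 and 19.5 in H3.3-KD and at 17.4, 12.8 and 17.9 in MFN1-KD. The control and H3.3-KD libraries spanned nearly the same range, whereas all MFN1-KD libraries lay below all control libraries. The log2 fold change, computed here and below on FPKM + 1, which understates changes of low genes, was -0.05 (SE 0.33) for H3.3-KD and -0.68 (SE 0.33) for MFN1-KD, and neither passed the test (limma, adjusted p = 0.921 and 0.247). *Braf* (6:39603237-39725463, minus strand) was measured at 5.34, 4.67 and 2.72 FPKM in control, at 5.44, 7.60 and 6.72 in H3.3-KD and at 6.25, 5.51 and 4.63 in MFN1-KD. H3.3-KD lay above control in every library, by 0.56 (SE 0.32, limma adjusted p = 0.216), and MFN1-KD overlapped control. The 3′ end of *Braf* overlaps the antisense gene *Ndufb2*, which lay at 110 to 436 FPKM, and without a stated strand setting reads of the shared stretch cannot be assigned to one of them.

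Among the members, *Map2k2*, a MEK kinase, had the largest log2 fold change in H3.3-KD on FPKM + 1, whereas by the ratio of group means the low-level *Mapk3* was larger, at 6.21. *Map2k2* (10:81105915-81133975, plus strand) was measured at 41.4, 37.5 and 28.3 FPKM in control and at 125, 141 and 161 FPKM in H3.3-KD. Every H3.3-KD library lay above every control library, and the group means stood in a ratio of 3.98. *Map2k2* rose by 1.97 on the log2 scale (SE 0.24, 95% confidence interval 1.44 to 2.51, limma adjusted p = 0.00037). The call held under all 18 alternatives, with values of 0.84 to 2.09. The lowest value, 0.84 (adjusted p = 0.0169), came once the dependence of expression on GC content and transcript length had been removed from every library. The longest *Map2k2* transcript has a GC content of 60.4%, the highest of the 8.

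In MFN1-KD *Map2k2* was measured at 28.4, 31.6 and 22.8 FPKM, which overlapped control, and the log2 fold change was -0.36 (SE 0.24, limma adjusted p = 0.414). *Map2k1* (9:64185770-64253631, minus strand) was measured at 33.4, 29.9 and 27.8 FPKM in control, at 47.9, 37.1 and 55.8 in H3.3-KD and at 15.2, 19.8 and 14.3 in MFN1-KD. The 3 groups did not overlap, with H3.3-KD highest and MFN1-KD lowest. Against control, the log2 fold change was 0.60 (SE 0.25, limma adjusted p = 0.101) in H3.3-KD and -0.86 (SE 0.25, 95% confidence interval -1.42 to -0.29, adjusted p = 0.0867) in MFN1-KD, and neither passed the test. With library weights both did, at 0.49 (adjusted p = 0.0424) and -0.82 (adjusted p = 0.0460).

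At the end of this branch *Mapk3* (7:126759601-126765819, plus strand) was measured at 1.31, 0.32 and 0.33 FPKM in control, at 1.41, 6.80 and 3.97 in H3.3-KD and at 0.16, 2.09 and 0.00 in MFN1-KD. The H3.3-KD libraries lay above control, although the lowest of them exceeded the highest control by only a small step, and MFN1-KD replicate 3 was listed at 0. The log2 fold change was 1.51 (SE 0.56) in H3.3-KD, which did not pass the adjusted test (limma, adjusted p = 0.0624). It was -0.06 (SE 0.56, adjusted p = 0.972) in MFN1-KD. The call of *Mapk3* in H3.3-KD moved across the threshold with the libraries fitted, since the adjusted p became 0.0303 when H3.3-KD replicate 1 was left out, 0.0380 when MFN1-KD replicate 2 was, 0.0417 when MFN1-KD replicate 3 was, and 0.169 when control replicate 2 was.

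In the JNK branch the members encode MKK4 and MKK7, the kinases that activate JNK. *Map2k7* (8:4238740-4247897, plus strand) was measured at 5.90, 2.18 and 4.79 FPKM in control, at 10.8, 12.9 and 15.5 in H3.3-KD and at 14.0, 15.8 and 6.61 in MFN1-KD. Every knockdown library of either kind lay above every control library. *Map2k7* rose by 1.47 in H3.3-KD (SE 0.41, 95% confidence interval 0.57 to 2.37, limma adjusted p = 0.0200). This call was lost under upper-quartile scaling (adjusted p = 0.0531), with no filter (0.0566) and after removal of the GC and length trend, where the value was 0.65 (0.270). It was also lost without control replicate 2 (1.14, limma adjusted p = 0.0882), H3.3-KD replicate 2 (0.0566) or H3.3-KD replicate 3 (0.0645). In MFN1-KD the log2 fold change was 1.31 (SE 0.41, limma adjusted p = 0.0953), which did not pass the test, and it was 1.66 (adjusted p = 0.0548) without MFN1-KD replicate 3. With library weights it was 1.88 and passed (adjusted p = 0.0138). The gene *Gm49320*, which overlaps *Map2k7* on the same strand, was listed at 0 to 0.3 FPKM.

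*Map2k4* (11:65688243-65788297, minus strand) was measured at 9.16, 8.89 and 8.32 FPKM in control, at 19.7, 16.9 and 9.70 in H3.3-KD and at 12.8, 9.76 and 6.18 in MFN1-KD. H3.3-KD lay above control, with replicate 3 only just so, and MFN1-KD spread on both sides of it. The log2 fold changes of 0.70 (SE 0.35) and 0.06 (SE 0.35) did not pass the test (limma, adjusted p = 0.157 and 0.948), and library weights moved the first across the threshold (0.84, adjusted p = 0.0082). Of the JNK genes that follow, *Mapk8* had means of 2.53 ± 0.756 FPKM for control, 3.70 ± 0.932 for H3.3-KD and 6.63 ± 3.41 for MFN1-KD. *Mapk9* had means of 6.85 ± 2.74, 11.7 ± 2.13 and 4.0 ± 1.86 FPKM in the same order (SD, n = 3). Neither passed the test against control in either knockdown.

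The p38 branch was represented by *Mapk14* (17:28691329-28748406, plus strand), measured at 12.1, 7.73 and 6.93 FPKM in control, at 23.5, 24.3 and 49.1 in H3.3-KD and at 14.9, 16.6 and 27.4 in MFN1-KD. As for *Map2k7*, all 6 knockdown libraries lay above all control libraries. *Mapk14* rose by 1.70 in H3.3-KD (SE 0.37, 95% confidence interval 0.87 to 2.53, limma adjusted p = 0.0068), and the call held under all 18 alternatives, with values of 1.18 to 1.92. In MFN1-KD the log2 fold change was 1.05 (SE 0.37, 95% confidence interval 0.22 to 1.88), with an adjusted p of 0.132 (limma), and it was 0.79 (adjusted p = 0.284) without MFN1-KD replicate 3. Of the kinases upstream of p38, *Map2k3* was measured at 7.01, 4.65 and 2.40 FPKM in control, at 23.5, 23.3 and 38.4 in H3.3-KD and at 1.53, 4.21 and 0.48 in MFN1-KD. It rose by 2.42 in H3.3-KD (SE 0.50, limma adjusted p = 0.0049), while in MFN1-KD its log2 fold change was -0.99 (adjusted p = 0.262). *Map2k6* did not pass the filter, with at most 2.10 FPKM in a library.

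Counted together, 3 of the 8 members rose in H3.3-KD (*Map2k2*, *Mapk14* and *Map2k7*) and 0 fell, where 21.8% of the 13011 genes tested were called higher and 9.12% lower by the same rule (limma, Benjamini-Hochberg adjusted p under 0.05). With only 8 members this count is not read as setting them apart from other genes. The H3.3-KD libraries did not overlap control and lay above it for 7 of 8 members, against 34.5% of all genes. At the threshold of the study, more than 2-fold with an unadjusted p under 0.05, *Mapk3* joined the other 3, and 23.9% of all genes were higher by that rule. The median log2 fold change of the members was 1.08, and that of all genes was 0.26. Median-ratio scaling moved the median of all genes in H3.3-KD to -0.01 and upper-quartile scaling moved it to -0.17, and the called genes went from 2841 higher and 1187 lower to 2074 and 1754, and to 1604 and 2088. *Map2k2* and *Mapk14* passed under both scalings, by 1.64 and 1.38 under median ratios and by 1.45 and 1.20 under upper quartiles.

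In MFN1-KD 0 of the 8 members passed the adjusted test with limma, where 1.15% of all genes were called higher and 2.2% lower. At an unadjusted p under 0.05 there were 3, *Map2k1*, *Map2k7* and *Mapk14*, against 23.2% of all genes. At the threshold of the study 2 members were higher, *Map2k7* and *Mapk14*, against 5.02% of all genes. This count dropped to 0 when control replicate 2 was left out, and to 1 when control replicate 3 or the third MFN1-KD library was. The groups did not overlap for 4 members. *Map2k7* and *Mapk14* lay above control, as did 11.4% of all genes, and *Araf* and *Map2k1* lay below it, as did 16.8%. The median log2 fold change of the members was close to 0 (0.00079), beside -0.08 for all genes, with 4 members above 0, where 44.5% of all genes were.

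**Figure D2:**
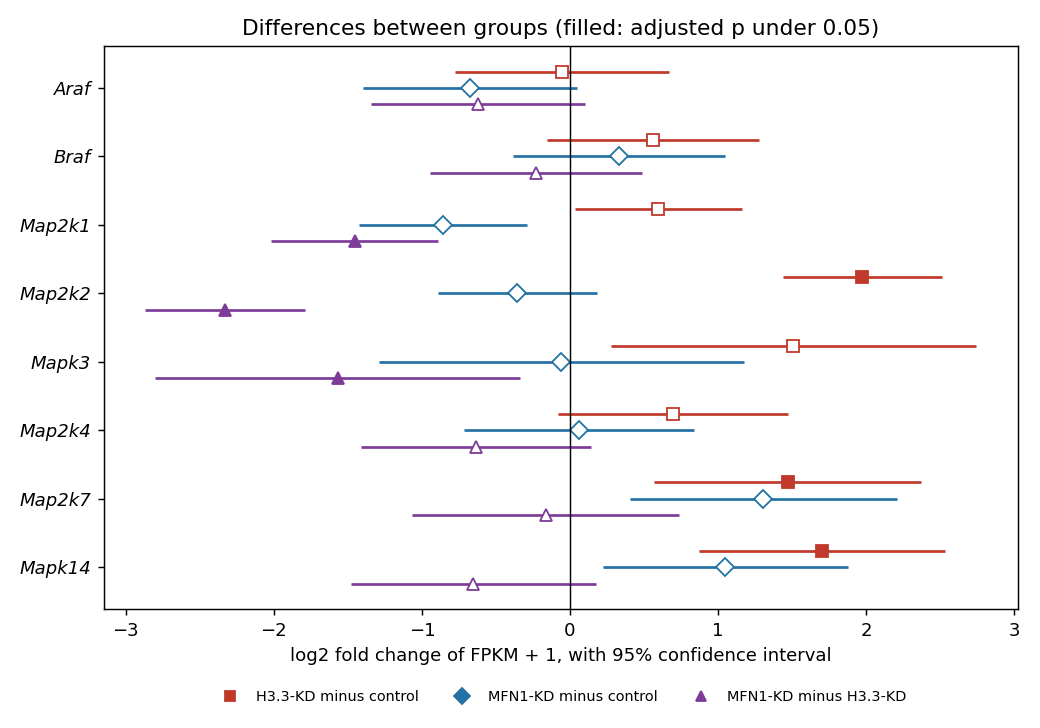
Log2 fold change of FPKM + 1 (horizontal axis) with its 95% confidence interval for each member, for H3.3-KD minus control (red squares), MFN1-KD minus control (blue diamonds) and MFN1-KD minus H3.3-KD (purple triangles), where filled symbols have an adjusted p under 0.05. Filled red squares stand at *Map2k2* (1.97), *Map2k7* (1.47) and *Mapk14* (1.70), no blue symbol is filled, and the filled purple triangles stand at *Map2k1*, *Map2k2* and *Mapk3*.

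The knockdowns were compared directly because both were set against the same 3 control libraries. *Map2k2* was lower in MFN1-KD than in H3.3-KD by a log2 fold change of -2.33 (SE 0.24, limma adjusted p = 0.00011), and *Map2k1* by -1.45 (SE 0.25, adjusted p = 0.0015). Both calls held under all 18 alternatives, with values of -2.43 to -1.07 for *Map2k2* and -1.61 to -0.89 for *Map2k1*. *Mapk3* also passed, at -1.57 (SE 0.56, limma adjusted p = 0.0464), although the libraries of the 2 groups overlapped and the call was lost in 13 of 17 alternatives. Without a control library it was lost at 0.0595 to 0.0655, and without H3.3-KD replicate 2 or 3 or MFN1-KD replicate 1 or 3 at 0.114 to 0.181. So 3 members were called lower and 0 higher, beside 27.6% and 11% of all genes. The libraries of *Map2k1*, *Map2k2* and *Araf* were lower in MFN1-KD without overlap, as for 33.1% of all genes. *Mapk14*, *Map2k4*, *Araf*, *Braf* and *Map2k7* did not pass, with values of -0.65, -0.63, -0.62, -0.23 and -0.16, and those of *Braf* and *Map2k7* turned positive under median-ratio scaling (0.11 and 0.20). After removal of the GC and length trend *Braf* was at -1.09 and passed (limma adjusted p = 0.0223). For *Map2k7* and *Mapk14* the 95% confidence intervals of the difference were -1.06 to 0.74 and -1.48 to 0.17.

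Related kinases at the same step of a cascade were also compared within each library, as shares of their summed FPKM. Scaling of the whole library leaves this measure as it is, but a trend over GC content or transcript length does not. The longest transcripts differ in GC content, at 60.4% for *Map2k2* and 51.2% for *Map2k1*, and at 56.0% for *Map2k7* and 45.0% for *Map2k4*. For *Araf* and *Braf* it is 45.4% and 42.6%. Neither the shares nor the log ratios below were recomputed after removal of that trend. *Map2k2* made up 55.3%, 55.6% and 50.4% of MEK1 and MEK2 transcripts in control, 72.2%, 79.2% and 74.3% for H3.3-KD and 65.2%, 61.5% and 61.5% for MFN1-KD. No library of one group reached the range of another, so *Map2k2* held the larger share in both knockdowns than in control. The summed level, which was not tested, was 66.1 ± 9.43 FPKM in control, 189 ± 24.2 with the H3.3 knockdown and 44.0 ± 7.20 with the MFN1 knockdown (SD, n = 3), again with no overlap. *Araf* made up 87.3%, 81.3% and 89.5% of the sum of *Araf* and *Braf* in control, 86.8%, 74.3% and 74.4% for H3.3-KD and 73.5%, 69.8% and 79.5% for MFN1-KD. MFN1-KD lay below control without overlap, and H3.3-KD overlapped it. The sum of *Araf* and *Braf* was 31.0 ± 9.65 FPKM for control, 32.4 ± 7.91 for H3.3-KD and 21.5 ± 2.82 for MFN1-KD (SD, n = 3).

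*Map2k7* made up 39.2%, 19.7% and 36.5% of MKK4 and MKK7 transcripts in control, 35.3%, 43.3% and 61.5% for H3.3-KD and 52.3%, 61.9% and 51.7% for MFN1-KD. MFN1-KD lay above control and H3.3-KD overlapped it. The sum of *Map2k4* and *Map2k7* was 13.1 ± 2.00 FPKM for control, 28.5 ± 2.91 for H3.3-KD and 21.7 ± 7.74 for MFN1-KD (SD, n = 3), and H3.3-KD lay above control in every library. Log ratios of 4 pairs of kinases, those 3 and *Mapk14* to *Mapk3*, were tested in 3 comparisons each, with two-sided exact permutation tests. Groups did not overlap in 5 of the 12 tests, which were *Map2k1* to *Map2k2* in all 3 comparisons, and *Map2k4* to *Map2k7* and *Araf* to *Braf* in MFN1-KD against control. The share over other pairs of genes was not computed, and the 3 comparisons reuse the same libraries. This count is therefore not read as setting these pairs apart. With 3 libraries against 3 the exact test cannot go below p = 0.10, which is 0.24 after adjustment over the 12 tests, so none passed.

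**Figure D3:**
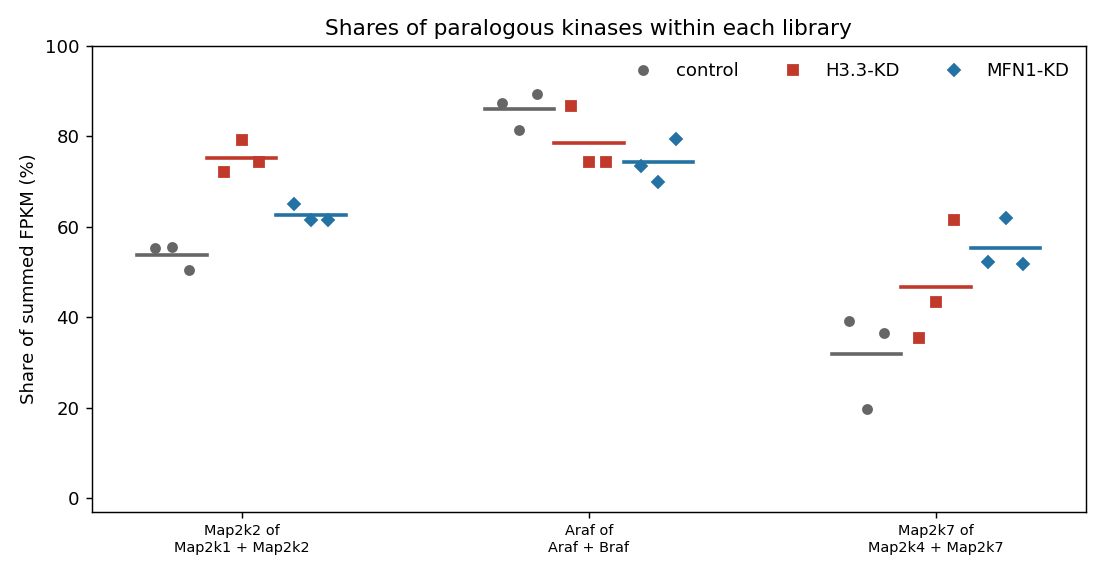
Share of one kinase in the summed FPKM of its group of related kinases (vertical axis, %), with 1 point per library and a bar at each group's mean. *Map2k2* lies at 50.4 to 55.6% of MEK transcripts in control, 61.5 to 65.2% in MFN1-KD and 72.2 to 79.2% in H3.3-KD with no overlap, and the *Araf* share is lower and the *Map2k7* share higher in MFN1-KD than in every control library.

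Across the 9 libraries the members did not share one pattern. The highest Pearson correlation of log2(FPKM + 1) was that of *Map2k1* and *Map2k2* (r = 0.86) and the lowest that of *Araf* and *Map2k7* (r = -0.28). These are descriptions over 9 libraries that share groups and library effects. For each member the gene most like it was sought among those with a mean of at least 10 FPKM. *Map2k2* was closest to *Pias4* (r = 0.998), measured at 5.70, 4.26 and 2.91 FPKM in control, 57.6, 66.7 and 85.0 for H3.3-KD and 2.05, 2.71 and 1.65 for MFN1-KD. *Map2k1* was closest to *Pak1ip1* (r = 0.994), *Mapk14* to *Fiz1* (r = 0.984) and *Map2k4* to *Erlin1* (r = 0.963). The closest to *Braf*, *Mapk3*, *Map2k7* and *Araf* were *Ubp1* (0.953), *Plekhg5* (0.950), *Hnrnpu* (0.921) and *Rfc5* (0.897).

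The other genes of the pathway were taken from a written list of 129 genes, from receptors to transcription factors, of which 128 matched an entry and 94 passed the filter. This list was chosen with earlier results of these data known. The paper had reported MAPK signalling among the terms of genes that rose in either knockdown. Counts from the list, here and for MFN1-KD below, are therefore not an independent test of the pathway. In H3.3-KD 40 of the 94 rose and 2 fell (42.6% and 2.13%), where 21.8% of all genes tested rose and 9.12% fell, with a median log2 fold change of 0.78 beside 0.26 for all genes. After removal of the GC and length trend 23 rose and 2 fell, beside 2121 and 857 of 12816 genes, and under upper-quartile scaling 25 of 91 rose and 9 fell, beside 1604 and 2088 of 12920. Without H3.3-KD replicate 2, 25 of 92 rose and 1 fell, beside 2025 and 857 of 12834 genes. By role, 9 of 15 transcription factors at the end of the pathway rose and 0 fell, 8 of 17 phosphatases and feedback genes rose and 1 fell, 6 of 13 genes of RAS and its activators rose and 0 fell, and 4 of 8 downstream kinases rose and 0 fell. Among MAP3K genes 4 of 12 rose and 1 fell, among the other MAPK genes 3 of 7 rose, among receptors and ligands 3 of 8, among RAF kinases and scaffolds 2 of 9, and among RAS inactivators 0 of 4.

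The genes named from this list included larger differences than any member showed. *Jund*, an AP-1 transcription factor, was measured at 1.30, 0.64 and 0.52 FPKM in control and at 20.8, 36.2 and 42.6 in H3.3-KD, and it rose by 4.20 (limma adjusted p = 0.00014). *Dusp10*, a phosphatase that acts on p38 and JNK, was measured at 2.93, 2.32 and 3.11 FPKM in control and at 28.7, 68.2 and 70.6 in H3.3-KD (3.81, limma adjusted p = 0.00056). *Mknk2*, a kinase downstream of ERK and p38, rose by 2.96 (limma adjusted p = 0.00040), *Max*, the partner of MYC, by 2.94 (0.00049), and *Grb2*, the adaptor that brings SOS to receptors, by 1.76 (0.0019). The 2 that fell, named after their values were seen, were *Tab2*, an adaptor of the kinase TAK1 (-1.20, limma adjusted p = 0.0166, lost in 3 of the 9 fits that left out 1 library), and *Spry2*, a feedback inhibitor of receptor signalling (-1.78, adjusted p = 0.0024). *Spry2* was measured at 85.3, 60.9 and 115 FPKM in control, at 21.6, 18.7 and 33.6 in H3.3-KD and at 144, 179 and 234 in MFN1-KD, where the log2 fold change of 1.10 did not pass the test (limma adjusted p = 0.0811).

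In MFN1-KD 3 of the 94 rose and 1 fell (3.19% and 1.06%), beside 1.15% and 2.2% of all genes. The median log2 fold change was 0.31, beside -0.08 for all genes. At the threshold of the study 13 of the 94 were higher, where 5.02% of all genes were. By that rule 3 were lower, for which no share of all genes is given, so the 2 directions cannot be weighed against each other. *Rras2*, a member of the RAS family, rose by 1.20 (limma adjusted p = 0.0441) and *Ppp2ca*, the catalytic subunit of phosphatase PP2A, by 1.33 (adjusted p = 0.0419). *Lamtor3*, a scaffold that binds MEK1 on late endosomes, fell from 52.2, 45.7 and 72.9 FPKM in control to 20.3, 17.2 and 7.99 (-1.90, limma adjusted p = 0.0343). All 3 of these calls were lost when any one of the control libraries, H3.3-KD replicate 1 or H3.3-KD replicate 2 was left out. Those of *Rras2* and *Ppp2ca* were also lost without MFN1-KD replicate 2 or 3, and that of *Ppp2ca* after removal of the GC and length trend (limma adjusted p = 0.0768). The adjusted p over the 9 fits without 1 library reached 0.177 for *Rras2*, 0.177 for *Ppp2ca* and 0.152 for *Lamtor3* (limma), while the direction held in each. *Fgfr3* (1.55, limma adjusted p = 0.0638), *Dusp14* (-1.71, 0.0724) and *Myc* (-1.52, 0.0762) did not pass, though *Fgfr3* did under median-ratio and upper-quartile scaling (limma adjusted p = 0.0425 and 0.0459) and *Dusp14* under upper-quartile scaling (0.0484).

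**Figure D4:**
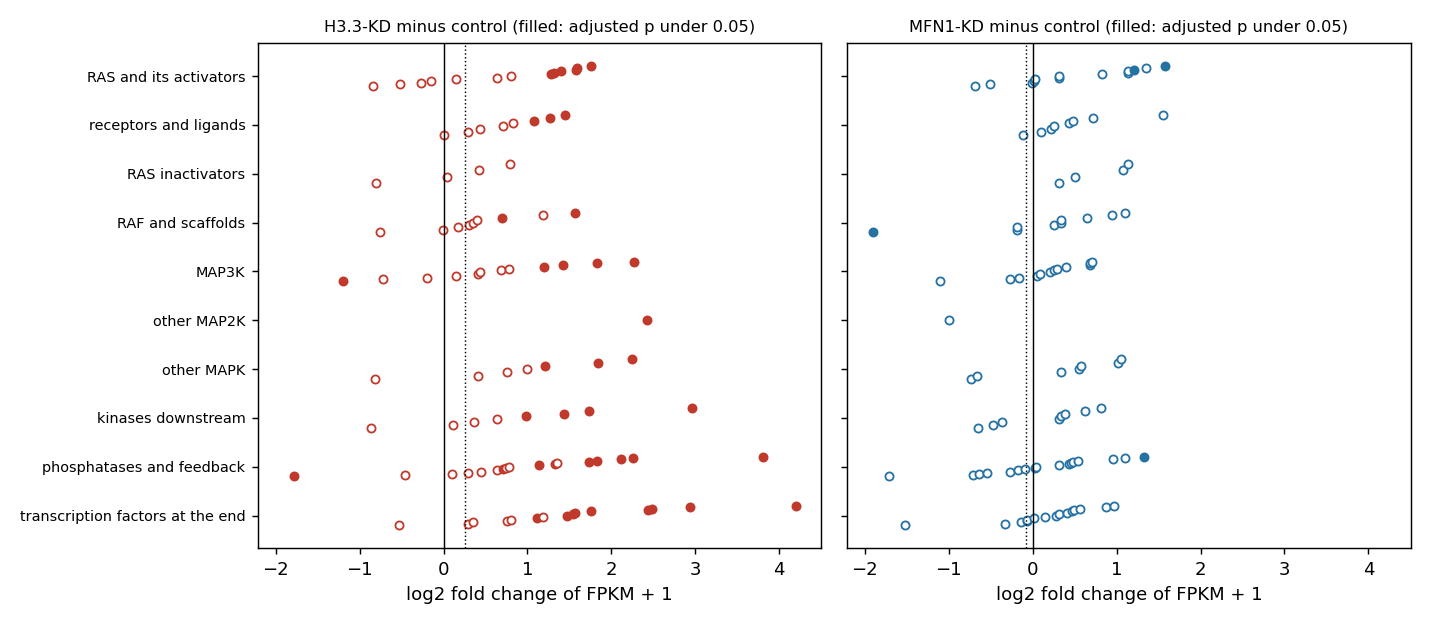
Log2 fold change of FPKM + 1 (horizontal axis) of the 94 other pathway genes tested, 1 point per gene, by role (rows), in H3.3-KD (left) and MFN1-KD (right) against control. Filled points have an adjusted p under 0.05 (42 on the left, 4 on the right), the solid line marks 0 and the dotted line the median of all genes (0.26 and -0.08).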

How the data were processed

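Libraries were made from 8-cell embryos in 3 groups of 3. Per the submitters' processing notes and the methods, reads were trimmed with cutadapt 1.16 and mapped to mm10 with STAR, and differences were tested with Deseq2. The values deposited by the authors are FPKM rounded to 2 decimals. How they were counted, the annotation and the strand setting are not given in the sources used here. Low values gave no common step, so whole reads could not be recovered, depth is unknown, and no interval or limit from counts is given.

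The 13011 genes that averaged 1 FPKM or more across the 9 libraries were analysed. On log2(FPKM + 1), limma 3.58.1 (R 4.3.3) fitted the 3 groups together (eBayes with trend and robust moderation, no covariates), in place of the count test, and p-values were adjusted by Benjamini-Hochberg over all genes tested. Tested on simulated data of 11753 genes, the fit recovered 132 of 200 genes changed by a log2 fold change of 2 in H3.3-KD against control, with 10 false calls, and made 1 call in a group without change. The changed genes were drawn only from those with a mean log2(FPKM + 1) above 3 in control. *Map2k7*, *Braf* and *Mapk3* lay below that level, so the recovery does not apply to them. Positions, GC content and transcript lengths came from GENCODE M21 (GRCm38). Shares and figures were computed with Python 3.11.15, pandas 2.3.3, numpy 2.4.6 and matplotlib 3.10.9.

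The members and the pathway list were chosen with earlier results of these data known. Named genes are the members, the siRNA targets, *Mapk8*, *Mapk9*, *Map2k3* and *Map2k6*, for each group of the list at most the 2 genes with the smallest p in each comparison with control, and for each member the gene most like it. *Tab2* and *Spry2* in H3.3-KD, and the marker genes, were named outside this rule after their values were seen. Some genes that this rule selects are not reported here. The alternatives were scaling by upper quartiles or median ratios, dropping the filter or raising it to 10 FPKM, a pseudocount of 0.1, the replicate number as a block, the 6 libraries compared alone, library weights, removal of each library's spline trend (5 degrees of freedom) over GC content and transcript length, and each library left out in turn. The pathway list was refitted under both scalings and the trend removal and, chosen after seeing the data, with each library left out in turn.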

Additional observations from a re-analysis of the deposited data

How the results depend on the processing

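Of 422 refits of the 24 member fold changes, 374 kept their direction and their side of the threshold, 19 lost a call, 10 gained one and 19 changed sign. Both changes of the filter, the replicate block and the 6 libraries alone can move only the p-value, not the fold change. The same holds for leaving out a library of the group not compared, so these refits say nothing about direction. The calls of *Map2k2* and *Mapk14* in H3.3-KD and of *Map2k1* and *Map2k2* between the knockdowns held throughout. The members called in H3.3-KD were 3, but 6 with library weights, 4 with only the 6 libraries compared, 2 under upper-quartile scaling, without a filter, with a mean of at least 10 FPKM and after trend removal, and 2 to 4 with 1 library left out. The calls over all genes grew too, from 2841 higher and 1187 lower of 13011 to 4734 and 2246 with library weights. With only the 6 libraries compared they were 3587 and 1623 of 13111. In MFN1-KD 0 members were called, but 2 with library weights, beside 570 and 823 of all genes. The members past the study's threshold in H3.3-KD were 4, but 2 with a mean of at least 10 FPKM, which drops *Braf*, *Mapk3* and *Map2k7*, and 1 after removal of the GC and length trend. In MFN1-KD they were 2, but 1 under each of those settings and with library weights, and 0 to 2 with 1 library left out. Non-overlapping paired kinases were 5 to 7 with 1 library left out, where a group of 2 separates more easily than a group of 3. The called pathway genes numbered 42 in H3.3-KD, but 25 after removal of the GC and length trend and 26 to 49 with 1 library left out. In MFN1-KD they numbered 4, but 2 after that removal, 7 under upper-quartile scaling and 0 to 5 with 1 library left out. The cause of these shifts was not tested.

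The values that changed sign were without a call on either side. In H3.3-KD *Araf* was 0.17 with library weights and -0.56 to 0.19 over the alternatives, all with adjusted p of 0.277 or more (limma). In MFN1-KD removal of the GC and length trend gave -0.16 for *Braf*, 0.28 for *Mapk3* and -0.21 for *Map2k4*, and library weights gave 0.17 for *Mapk3*. With 1 library left out *Araf* in H3.3-KD ranged from -0.31 to 0.19, *Mapk3* in MFN1-KD from -0.57 to 0.25, and *Map2k4* in MFN1-KD from -0.15 to 0.31. Between the knockdowns *Braf* was 0.11 under median-ratio and 0.27 under upper-quartile scaling and passed at -1.09 after trend removal (limma adjusted p = 0.0223), and *Map2k7* was 0.20 and 0.37 under these, 0.60 after trend removal, 0.10 with library weights and -0.38 to 0.19 with 1 library left out. In the fit of only the 6 libraries of MFN1-KD and control *Mapk3* did not pass the filter and has no value.

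With the replicate number as a block, 3, 0 and 3 members were called in the 3 comparisons, as without it, and the block changed no member's call. The called genes in MFN1-KD went from 150 higher and 286 lower to 6 and 25 with the block and to 1 and 2 with only the 6 libraries compared. By limma they were 0 and 0 without control replicate 2 (2002 genes at an unadjusted p under 0.05), 0 and 0 without control replicate 3 (1979), 0 and 1 without H3.3-KD replicate 2 (2748) and 0 and 2 with no filter (3895). Without control replicate 1 they were 22 and 37, and without H3.3-KD replicate 1 they were 21 and 52. They were 238 and 419 with a mean of at least 10 FPKM, 570 and 823 with library weights, 84 and 161 after trend removal, 146 and 515 without MFN1-KD replicate 2 and 68 and 193 without MFN1-KD replicate 3. Deviations of libraries with the same number correlated at -0.053 to 0.158, and those of libraries with different numbers at -0.116 to 0.072. These ranges overlapped and the labels state no pairing, so none was assumed. The 3 libraries per group limit precision, and depth is unknown.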
